A study of Homo sapiens with 6 samples.

Results

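The messenger RNAs of 10 chemokine genes were followed in Capan-1 cells after silencing of GNE. Members were taken by name: every probe set that the platform annotation assigns to CXCL1, CXCL2, CXCL3, CXCL5, CXCL6, CXCL8, CXCL16, CCL20, CCL28 or CX3CL1 alone. This gave 18 of the 54675 probe sets on the array. The list of members was chosen with earlier results of these data known. Capan-1 is an established human pancreatic carcinoma line, and GNE encodes the bifunctional enzyme that opens the route from UDP-GlcNAc to sialic acid. The siGNE group holds 3 arrays of Capan-1 cells transfected with siGNE, whose GNE mRNA the labels give as knocked down. The control group holds 3 arrays of Capan-1 cells transfected with allStar, spelled as in the labels, whose GNE mRNA is given as unchanged. Both groups went through 2 rounds of transfection set 48 h apart and were harvested 72 h after the second. The model is a single cell line without stroma or immune cells, and the labels do not tell how many siRNAs were used or whether arrays stand for separate cultures. The p-values therefore measure the spread between these arrays, which may be technical.

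Chemokines are small secreted proteins that steer white blood cells along concentration gradients. CXCL1, CXCL2, CXCL3, CXCL5, CXCL6 and CXCL8 carry the ELR motif, bind CXCR2 (CXCL6 and CXCL8 also CXCR1) and attract neutrophils. Their genes sit side by side on chromosome 4 and are classical targets of NF-kB. CXCL16 and CX3CL1 are made as membrane-bound proteins that proteases shed, and they bind CXCR6 and CX3CR1. CCL20 binds CCR6, and CCL28, a mucosal chemokine, binds CCR10 and CCR3. Pancreatic carcinoma cells are known to secrete several of the ELR chemokines.

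The promoters of the 6 ELR chemokines are shown because these genes share a sequence element, and some of them passed the test while others did not. RefSeq sequences of GRCh38.p14 were matched for 8 of the 10 members. Each line gives the 110 bases just before the annotated gene start, 5′ to 3′ on the gene's strand, and the capitals mark GGAATTTCC, an NF-kB motif. The windows are chr4:73740459-73740568 (CXCL8, + strand), chr4:73836568-73836677 (CXCL6, + strand), chr4:73869283-73869392 (CXCL1, + strand), chr4:73998678-73998787 (CXCL5, - strand), chr4:74038690-74038799 (CXCL3, - strand) and chr4:74099196-74099305 (CXCL2, - strand).
CXCL8: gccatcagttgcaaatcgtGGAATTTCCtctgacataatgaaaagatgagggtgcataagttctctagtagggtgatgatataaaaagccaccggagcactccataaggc
CXCL6: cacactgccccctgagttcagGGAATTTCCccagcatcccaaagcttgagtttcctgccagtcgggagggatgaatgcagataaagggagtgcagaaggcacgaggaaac
CXCL1: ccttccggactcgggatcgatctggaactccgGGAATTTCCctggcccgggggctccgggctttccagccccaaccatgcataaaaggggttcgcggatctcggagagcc
CXCL5: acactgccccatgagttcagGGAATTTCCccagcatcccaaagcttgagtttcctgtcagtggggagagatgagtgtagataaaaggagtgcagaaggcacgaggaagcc
CXCL3: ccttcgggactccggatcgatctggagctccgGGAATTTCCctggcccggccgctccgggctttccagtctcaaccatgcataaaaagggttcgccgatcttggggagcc
CXCL2: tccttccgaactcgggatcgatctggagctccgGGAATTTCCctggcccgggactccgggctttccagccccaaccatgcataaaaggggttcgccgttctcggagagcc

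The NF-kB letters were present in all 6 of these promoters and lay 77 to 91 bases before the gene start. On either strand (GGAATTTCC or GGAAATTCC) they occurred in 162 of 35116 RefSeq promoters of 300 bases, or 0.461%. This share is that of these exact letters and not of NF-kB motifs, because variants of the letters were not searched. Some of the 6 promoters are closely alike, so their matches are not independent. The matches in all 6 beside this share are therefore a description and not a test of enrichment. The windows of CCL20 and CCL28 did not hold these letters, which says nothing about NF-kB at those genes. Over the 300 bases, the CXCL5 and CXCL6 promoters were 83.1% identical and the CXCL1 and CXCL3 promoters 82.5%, while CXCL8 shared 36.5% to 40.5% with the other five. CXCL8 also held an AP-1 motif (TGANTCA, the same on both strands, found in 7.71% of all promoters) 137 bases before the start. The C/EBP letters (TTGCNNAA or TTNNGCAA, 10.5% of promoters) were found in CXCL2 alone among the 8 genes. Their absence says nothing about C/EBP at the other genes, because variants of the motif were not searched. The TATA letters (TATAAA or TTTATA, 11.5% of promoters) were found in CXCL8 and CCL20. The composite motif bound by ATF4 with C/EBP partners (TGATGNAA or TTNCATCA, 3.62% of promoters) was in none of the 8. These motifs did not overlap each other in the members. A match of letters is a description and not a measured binding site.

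**Figure D1:**
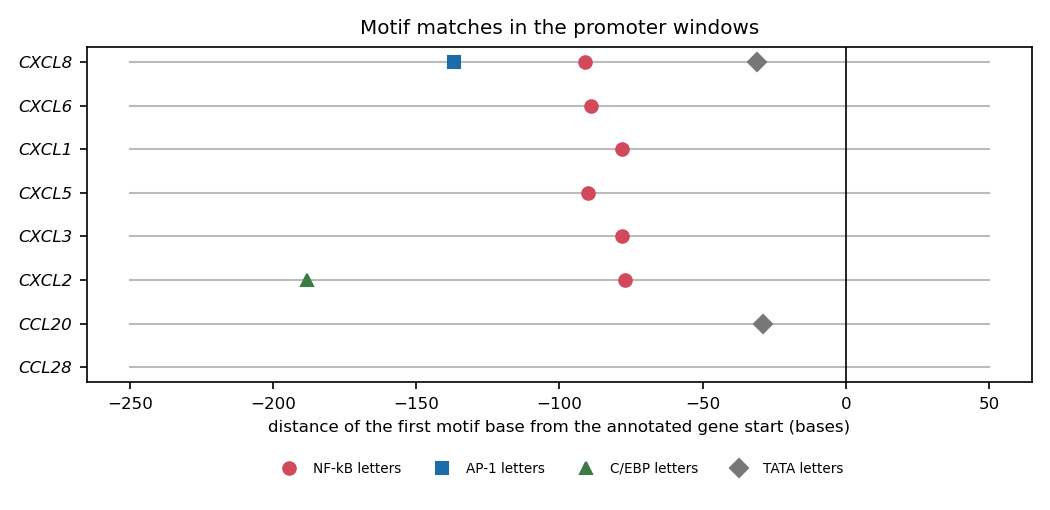
Motif matches in the RefSeq promoter windows of 8 chemokine genes, plotted as the distance in bases of the first motif base from the annotated gene start (vertical line), from 250 bases before to 50 after. The 6 ELR chemokines all hold the NF-kB letters 77 to 91 bases before the start, and CCL28 holds no match.

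Expression is given as log2 values per probe set, made by the authors with GCRMA, in which array medians of 2.96 to 3.02 mark background. A probe set was tested when its mean over the 6 arrays was above 4, which held for 22085 probe sets and 10862 genes, among them 12 chemokine probe sets and 8 chemokine genes. The other 6 chemokine probe sets were marked as near background. Arrays with the same title number, V1 to V3, are called a pair, and the limma fit that includes this number is called the fit with the replicate block. A gene passed at an adjusted p under 0.05 over all tested probe sets. GNE itself read 11.12, 11.47 and 10.86 in control arrays 1 to 3 and 8.39, 9.86 and 9.57 in siGNE arrays 1 to 3. The siGNE values were 15.0%, 32.8% and 40.9% of their paired control, and GNE fell with the block (adjusted p 0.0348 in limma) and did not pass without it (0.131).

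The ELR chemokines CXCL8, CXCL6 and CXCL1 fell to between 32.6% and 41.8% of the control level after GNE siRNA, and CXCL16 rose 1.38-fold, all in limma with the block. CXCL2, CXCL3, CXCL5 and CCL28 did not pass in either fit. CCL20 and CX3CL1 were near background and were not tested. In counts, 3 of the 8 tested genes fell with the block, where 5.74% of all tested genes fell, and 1 rose, where 4.12% of all tested genes rose. Because the members were chosen with earlier results known, an excess over all genes is no independent support. Without the block, 0 of the 8 passed in limma, 4 of the 8 had an unadjusted p under 0.05, and over all tested genes these shares were 0.046% and 16.2%. The 4 calls with the block depend on which probe sets are tested: with no filter on low values the block gave 0 calls among 54613 probe sets, and the limma adjusted p of the 4 genes were 0.129 to 0.331. Leaving out both arrays of number 1, 2 or 3 also left 0 calls, at 1 residual degree of freedom.

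CXCL8, interleukin-8, is the main neutrophil attractant of human epithelia. Its probe set 211506_s_at read 6.88, 7.79 and 7.60 in control arrays 1 to 3 and 5.96, 6.09 and 6.46 in siGNE arrays 1 to 3. All siGNE values lay below all control values, and control array 1 was the lowest of its group. The difference was -1.26 on the log2 scale (95% confidence interval -1.70 to -0.82 with the block), from 7.43 ± 0.48 to 6.17 ± 0.26 (SD, n = 3 arrays each). CXCL8 fell with the block (SE 0.17, limma adjusted p 0.0294) and did not pass without it (SE 0.27, limma adjusted p 0.133). In pairs 1, 2 and 3 the siGNE level was 52.8%, 30.6% and 45.1% of control.

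The other CXCL8 probe set, 202859_x_at, moved in the same way. It read 8.32, 9.48 and 9.12 in control arrays 1 to 3 and 7.36, 7.60 and 7.35 in siGNE arrays 1 to 3, again without overlap. The difference was -1.53 (SE 0.20 with the block, limma adjusted p 0.0286, and 0.116 without the block), or 34.5% of control. The suffix _x_at marks a probe set prone to cross-hybridisation, and the _s_at and _x_at values of CXCL8 had the same sign in all 3 pairs.

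CXCL6, granulocyte chemotactic protein 2, had the largest fall among the tested members. Its single probe set read 5.88, 7.44 and 6.95 in control arrays 1 to 3 and 4.84, 5.63 and 4.95 in siGNE arrays 1 to 3. No siGNE value reached the lowest control value, which was again that of array 1. The difference was -1.62, from 6.76 ± 0.80 to 5.14 ± 0.43 (SD, n = 3 arrays each), which is 3.07-fold lower. CXCL6 fell with the block (SE 0.20, limma adjusted p 0.0281) and did not pass without it (SE 0.43, limma adjusted p 0.184). The siGNE values were low, though above the limit of 4, and at low levels the size of a difference is uncertain.

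CXCL1, also called GRO-alpha, attracts neutrophils through CXCR2. It read 8.15, 9.19 and 9.27 in control arrays 1 to 3 and 7.53, 7.67 and 7.27 in siGNE arrays 1 to 3. The groups did not overlap, and control array 1 stood closest to the siGNE arrays, with control arrays 2 and 3 well above it. The difference was -1.37 (95% confidence interval -2.08 to -0.67 with the block), or 2.59-fold lower. CXCL1 fell with the block (SE 0.27, limma adjusted p 0.0473), close to the threshold, and did not pass without it (SE 0.32, limma adjusted p 0.145). The fall differed in size between the pairs, at 65.1%, 35.0% and 25.1% of control in pairs 1, 2 and 3.

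The 3 genes stood far down the list of tested genes when ordered by their difference. CXCL6 was 13th from the lowest of 10862, CXCL1 was 23rd and CXCL8 was 42nd, and 1.16% of all tested genes were lower by at least 1 on the log2 scale. Non-overlapping lower values, seen in these 3 of 8 tested chemokines, occurred in 13.8% of all tested genes. Non-overlapping higher values, seen in CXCL16 alone of the 8, occurred in 9.38%. Lower values in all 3 pairs were seen in 4 of the 8 (the 3 genes and CXCL2) and in 30.8% of all tested genes, and higher values in all 3 pairs in 1 of the 8 and in 27% of all tested genes. The median difference of the 8 chemokines was -0.33, beside -0.02 for all tested genes. These ranks, shares and medians are descriptions, because the members were chosen with earlier results of these data known.

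**Figure D2:**
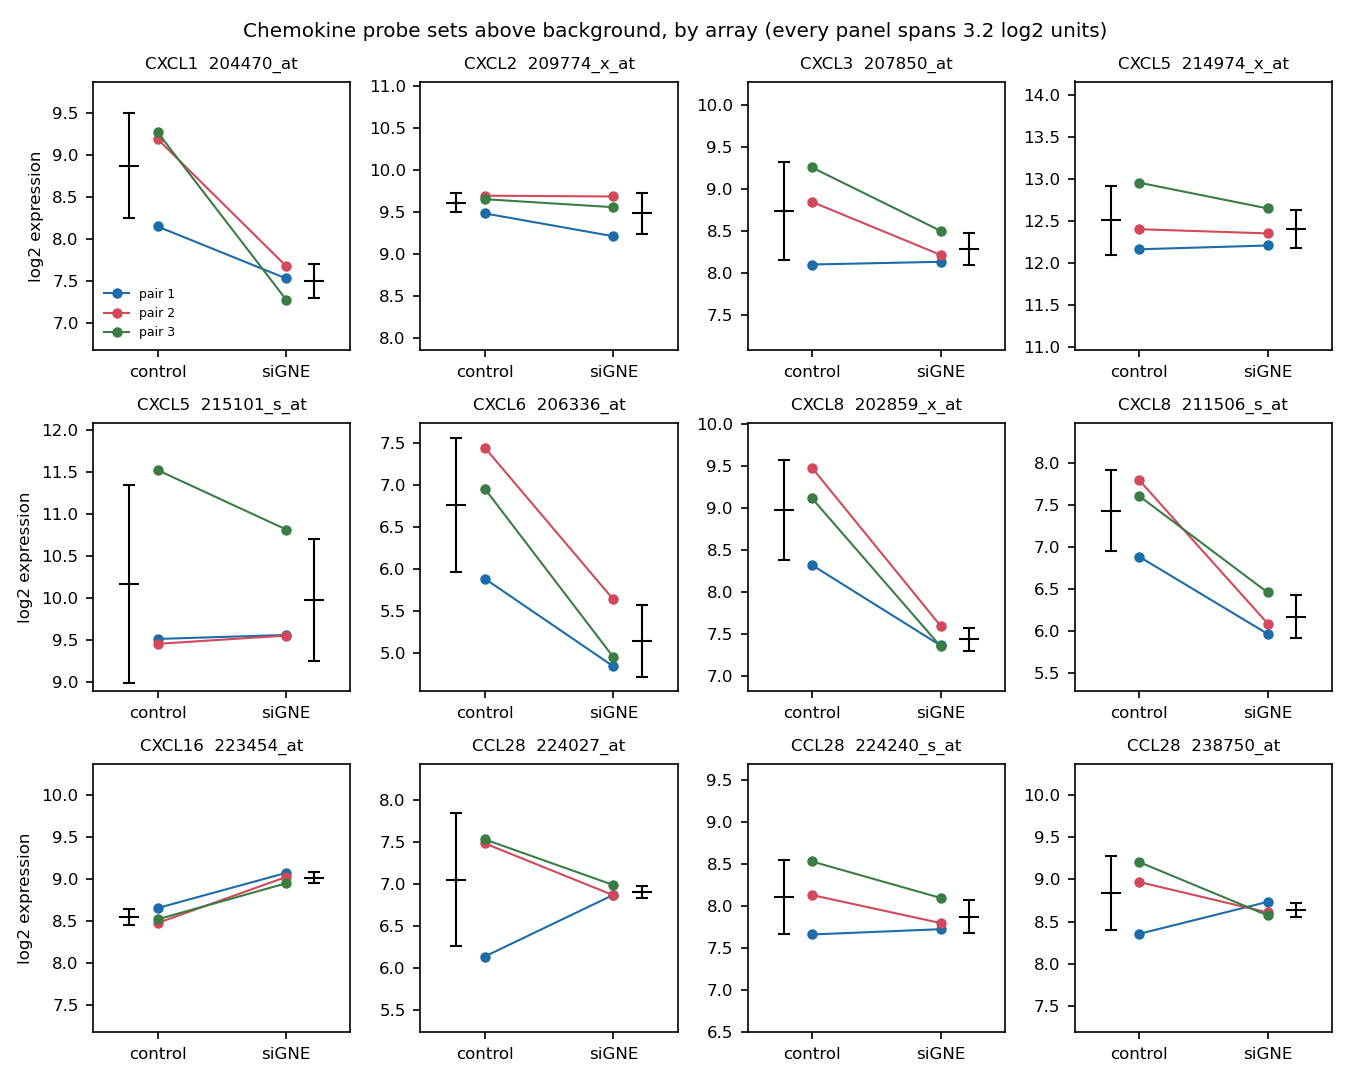
Log2 expression (y axis) of the 12 tested chemokine probe sets in control and siGNE arrays, 1 panel each, with every panel spanning the same number of log2 units. Lines join arrays of the same number, and black marks give the mean ± SD of each group (n = 3). CXCL1, CXCL6 and both CXCL8 probe sets drop in all 3 pairs, CXCL16 is higher in all 3, and control array 1 starts lowest for CXCL1, CXCL6 and CXCL8.

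The remaining ELR chemokines differed by less. CXCL3, or GRO-gamma, read 8.10, 8.84 and 9.25 in control arrays 1 to 3 and 8.13, 8.21 and 8.50 in siGNE arrays 1 to 3. The groups overlapped, because pair 1 was level (102% of control) while pairs 2 and 3 stood at 64.6% and 59.3%. The difference was -0.45 (95% confidence interval -0.91 to 0.01 with the block, limma adjusted p 0.162 with it and 0.578 without). In the fit without the block it was -0.19 without control array 3 and -0.77 without control array 1. A fall of the size seen for CXCL6 lies outside this interval.

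CXCL2, or GRO-beta, read 9.49, 9.70 and 9.66 in control arrays 1 to 3 and 9.22, 9.69 and 9.56 in siGNE arrays 1 to 3 on its only tested probe set, 209774_x_at. The groups overlapped and the difference was -0.13 (95% confidence interval -0.37 to 0.12 with the block, limma adjusted p 0.419 with it and 0.812 without). This probe set is prone to cross-hybridisation, and CXCL1 and CXCL3 are close relatives of CXCL2, so the value of CXCL2 is uncertain. Transcript and probe sequences were not compared here. The other CXCL2 probe sets, 1569203_at and 230101_at, had means of 3.01 and 2.55, at background.

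CXCL5, which like CXCL6 attracts neutrophils, differed more between array numbers than between groups. Its probe set 215101_s_at read 9.52, 9.46 and 11.52 in control arrays 1 to 3 and 9.56, 9.56 and 10.82 in siGNE arrays 1 to 3. Both arrays of number 3 stood above the other four by at least 1 log2 unit. The difference was -0.19 (95% confidence interval -0.67 to 0.29 with the block, limma adjusted p 0.536 with it and 0.950 without), and it was 0.49 without control array 3. The probe set 214974_x_at gave -0.10 (limma adjusted p 0.544 with the block), with number 3 again highest in both groups. The third CXCL5 probe set, 207852_at, averaged 3.34 and was near background.

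Whether CXCL1 and CXCL6 differed in response from their close relatives was tested on the difference between 2 members within each array. CXCL1 minus CXCL2 was lower in siGNE arrays by 1.25 on the log2 scale than in control arrays, with -0.35, -1.50 and -1.90 in pairs 1, 2 and 3. CXCL1 minus CXCL3 was lower by 0.92, and CXCL6 minus CXCL5 by 1.43, each lower in all 3 pairs. An exact permutation test, two-sided, gave p = 0.1, 0.1 and 0.2 for these 3 comparisons, and 0.15, 0.15 and 0.2 after Benjamini-Hochberg adjustment. This test does not use the pairing, and 0.1 is the smallest p it can give with 3 against 3 arrays. The comparisons were chosen after the values were seen.

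**Figure D3:**
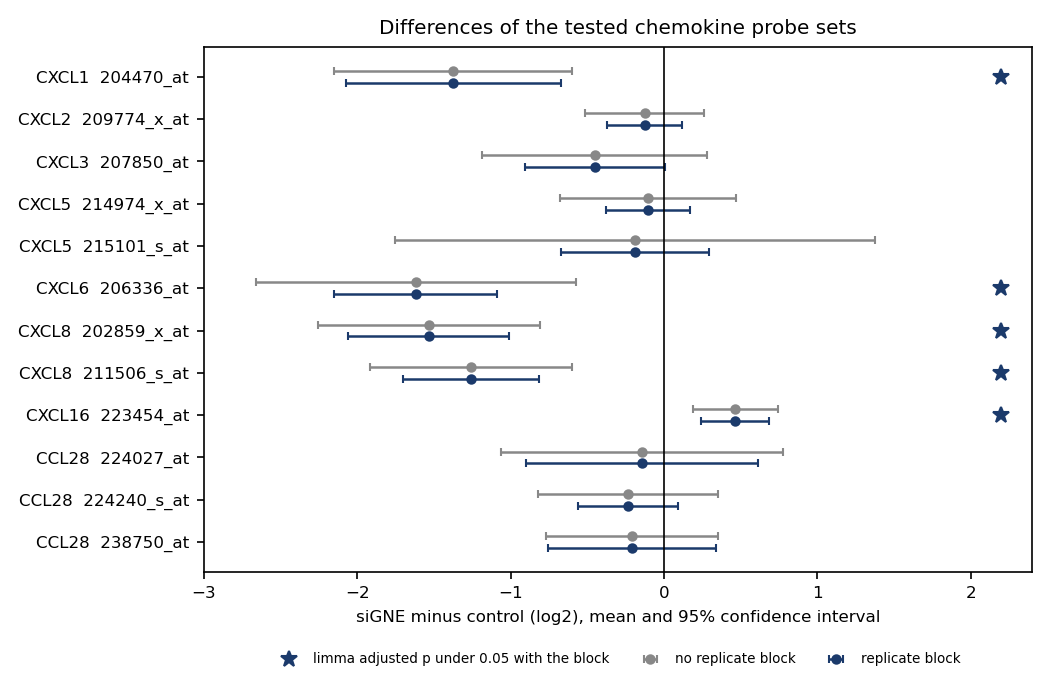
Difference between siGNE and control (x axis, log2) for the 12 tested chemokine probe sets, as the mean with its 95% confidence interval from limma without the replicate block (grey) and with it (blue). Stars mark the 5 probe sets of CXCL1, CXCL6, CXCL8 and CXCL16 with an adjusted p under 0.05 with the block; no probe set passed without it.

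CXCL16, a transmembrane chemokine that also serves as a scavenger receptor for oxidised lipoprotein, moved the other way. It read 8.65, 8.48 and 8.52 in control arrays 1 to 3 and 9.07, 9.02 and 8.95 in siGNE arrays 1 to 3. Every siGNE value lay above every control value, and the arrays of a group stayed within 0.18 of each other. The difference was 0.47 (95% confidence interval 0.24 to 0.69 with the block), with 0.42, 0.55 and 0.43 in pairs 1, 2 and 3. CXCL16 rose with the block (SE 0.09, limma adjusted p 0.0431) and did not pass without it (SE 0.11, limma adjusted p 0.159). Higher differences than that of CXCL16 were seen for 5.78% of the tested genes.

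CX3CL1, or fractalkine, the other membrane-bound member, was not detected above background. Its probe sets 203687_at and 823_at had means of 2.15 and 2.39 over the 6 arrays and differed between groups by less than 0.01.

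CCL20, which attracts CCR6-bearing dendritic cells and lymphocytes, was at the edge of detection. It read 3.79, 3.78 and 4.29 in control arrays 1 to 3 and 3.20, 3.43 and 3.54 in siGNE arrays 1 to 3. All siGNE values lay below all control values, with a difference of -0.56, but its mean of 3.67 left it untested, and at this level the size of a difference is uncertain.

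CCL28 was measured by 3 probe sets, none of which passed in either limma fit. The probe set with the highest mean, 238750_at, read 8.35, 8.97 and 9.21 in control arrays 1 to 3 and 8.73, 8.61 and 8.57 in siGNE arrays 1 to 3. Pair 1 was higher in siGNE (130% of control), and pairs 2 and 3 were lower (77.7% and 64.4%), so the groups overlapped. The difference was -0.21 (95% confidence interval -0.75 to 0.34 with the block, limma adjusted p 0.550 with it). For 224027_at and 224240_s_at the differences were -0.14 and -0.23, with pair 1 again higher and the others lower.

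The control arrays of the chemokines were more spread out than the siGNE arrays. The range over the 3 control arrays exceeded that over the 3 siGNE arrays for 7 of the 8 tested members (CXCL2 was the exception), and for 42.3% of all tested genes. Control array 1 was the lowest control for 6 of the 8, and for 23.4% of all tested genes. Leaving out both arrays of number 1, the differences with the block were -1.75 for CXCL1, -1.91 for CXCL6 and -1.43 for CXCL8 (211506_s_at), larger than with all arrays. Leaving out number 2, they were -1.31, -1.53 and -1.03, and leaving out number 3, they were -1.07, -1.43 and -1.31. GNE was lowest, at 15.0% of control, in pair 1, where the falls of CXCL1, CXCL6 and CXCL8 were smallest. With 3 pairs, a relation between these was not tested.

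The ELR chemokine genes were also followed in their order on chromosome 4, in the gene order of the GRCh38.p14 RefSeq table. From one end this order is CXCL8, CXCL6, PF4V1, CXCL1, PF4, PPBP, CXCL5, CXCL3 and CXCL2. The 3 genes that fell with the block stood first among the 6 that were tested, and PF4V1, PF4 and PPBP, platelet chemokine genes lying among them, were near background at 2.89, 2.76 and 2.31. The flanking genes were taken by position, after the values were seen. RASSF6, a Ras-association domain gene next to CXCL8, rose with the block by 1.21 (SE 0.13, adjusted p 0.0245 in limma, and 0.0784 without the block). Beyond CXCL2, the mitochondrial folate enzyme gene MTHFD2L differed by -0.43 and the EGFR ligand EREG by 0.21, and neither passed (limma adjusted p 0.0927 and 0.165 with the block). The tested genes of this stretch therefore included falls, a rise and genes that did not pass.

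**Figure D4:**
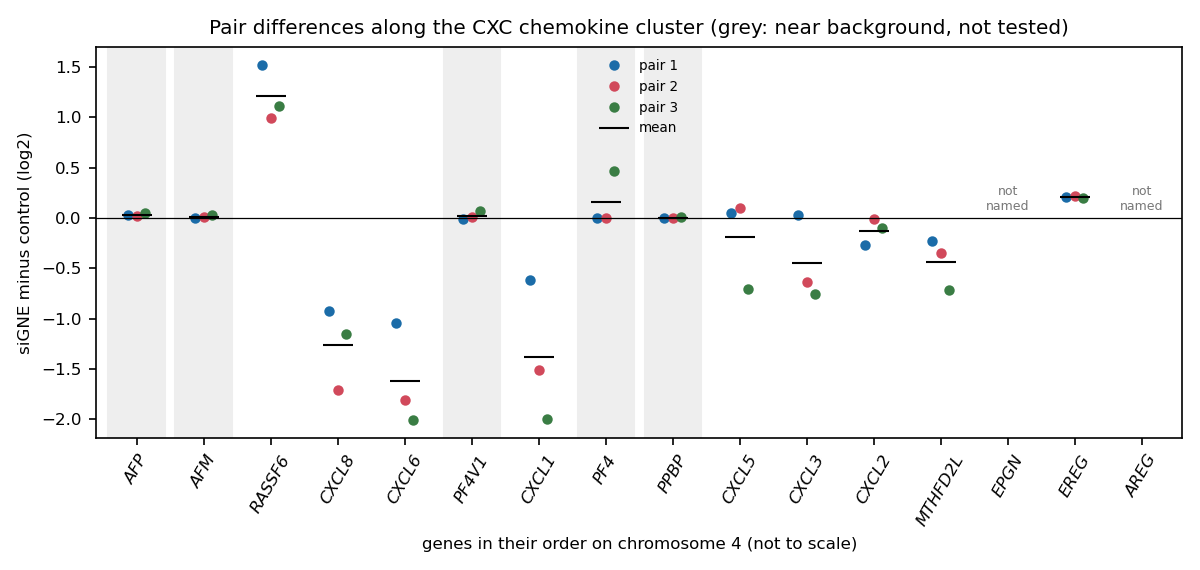
Difference between siGNE and control (y axis, log2) in each pair (points) and on average (bars) for genes in their order on chromosome 4, with positions not to scale. CXCL8, CXCL6 and CXCL1 lie below 0 in every pair and RASSF6 above 0, and grey bands mark genes near background; EPGN and AREG had no probe set annotated to them alone.

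The genes most like CXCL6 and CXCL16, the members with the largest fall and the largest rise, were found by the root mean square distance between their 3 pair differences, over all tested genes. Nearest to CXCL6 were CXCL1 (distance 0.30), the collagen gene COL12A1 (0.36) and the epithelial defensin gene DEFB1 (0.39). COL12A1 differed by -1.37 and DEFB1 by -1.32, and both fell with the block (adjusted p 0.0237 and 0.0231 in limma) but did not pass without it (0.102 and 0.480 in limma). Both were picked for pair differences like those of CXCL6, so a fall with the block follows from the choice and adds no support. Nearest to CXCL16 were CDC37L1, GPC1 and RTCA, at distances of 0.03 to 0.04.

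Most chemokine receptors on the array were near background. Of 21 chemokine receptor genes on the array, 20 had no probe set with a mean above 4, among them CXCR1 (2.13), CXCR2 (3.17), CXCR6 (2.79), CCR6 (2.88), CCR10 (2.51) and CX3CR1 (2.54). CCR3 was not analysed here. The tested one was CCRL2, an atypical receptor that binds chemerin. CCRL2 rose with the block by 0.76 (SE 0.09, adjusted p 0.0256 in limma), from 6.06 ± 0.73 in control to 6.82 ± 0.75 in siGNE arrays (SD, n = 3 each). Its values overlapped between the groups, with an adjusted p of 0.565 in limma without the block. Of 29 other chemokine genes on the array, 28 were near background and CCL19, at 4.11 in control arrays, did not pass (difference -0.01).

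Inducers and regulators of chemokine genes were counted against all tested genes, of which 9.85% passed with the block in either direction. Of 22 tested genes of NF-kB signalling and feedback, 0 fell and 1 rose with the block: NFKBIE, an inhibitor of NF-kB, at 0.61 (adjusted p 0.0302 in limma, and 0.568 without the block, with overlapping groups). NFKBIA, the inhibitor that NF-kB itself induces, differed by -0.43, with all siGNE values below the control values. Such lower values were seen in 3 of the 22 genes and in 13.8% of all tested genes. NFKBIA did not pass in either fit (limma adjusted p 0.251 and, with the block, 0.0770). TRAF3 (-0.49) and TNIP2 (0.36) did not pass either. The median of the list was 0.01, beside -0.02 for all tested genes.

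Among 17 tested cytokines and receptors that induce chemokines, IL6 fell with the block by 0.84 (SE 0.16, adjusted p 0.0466 in limma, and 0.269 without the block) from a control mean of 5.46, and none rose. IL6R (0.51) and IL17RA (-0.33) did not pass. Over all tested genes, 5.74% fell and 4.12% rose with the block. The interleukin-1 genes IL1A and IL1B, strong inducers of CXCL8, were chosen with their values known and differed by 0.03 and 0.11 (limma adjusted p 0.947 and 0.430 with the block). Of 13 AP-1 and C/EBP factors, CEBPG, a partner of ATF4, rose with the block by 1.03, and FOSB and FOS fell by 0.75 and 0.53 (adjusted p 0.0254, 0.0304 and 0.0430 in limma). Without the block none of the 3 passed (0.0906, 0.463 and 0.735 in limma), and the FOSB and FOS values overlapped between the groups. FOSB, FOS and NFKBIE were likewise named with their values known. ATF2 (-0.38) and CEBPA (-0.49) did not pass.

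Of 12 tested proteases and helpers that trim or shed chemokines, the matrix metalloproteinase MMP7 fell with the block by 0.78 (SE 0.09, adjusted p 0.0274 in limma, and 0.143 without the block) and none rose. DPP4, which trims the ends of several chemokines, differed by 0.36, and the cathepsin gene CTSB by 0.27, and these did not pass. Of 10 tested factors linked to AU-rich mRNA decay, only TIA1, a translational repressor, passed with the block. This is near the 9.85% of all tested genes that passed in either direction. TIA1 fell by 0.61 (adjusted p 0.0302 in limma, and 0.115 without the block), while KHSRP (-0.22) and ELAVL1 (-0.18) did not pass. Of 15 other secreted inflammatory genes, complement C3 fell with the block by 1.28 and the calprotectin subunit S100A9 by 0.87 (adjusted p 0.0281 and 0.0344 in limma, and 0.115 and 0.154 without the block). None of the 15 rose, and the prostaglandin synthase PTGS2 (-0.58) did not pass.

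The cells carried the markers of ductal epithelium. All 9 ductal markers, such as KRT19 and EPCAM, had means of 10.6 to 15.3, with summed log2 values of 122 to 124 in control and 123 to 125 in siGNE arrays, and none passed. All 7 leukocyte, 5 endothelial and 3 acinar markers on the array were near background. Of 6 fibroblast markers 5 were near background, and COL1A1 (0.71) rose with the block on the probe set used (adjusted p 0.0441 in limma, and 0.512 without the block, with overlapping groups), although its 5 probe sets had means from 2.59 to 8.39. The summed fibroblast values were 21.2 to 22.5 in control and 21.8 to 23.1 in siGNE arrays, and their part in the chemokine values was not tested. In RNA from whole cultures, fewer cells making a chemokine and less RNA per cell cannot be told apart.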

How the data were processed

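Total RNA (300 ng per array, per the labels' protocols) of 3 control and 3 siGNE samples was hybridised to Affymetrix arrays. The authors deposited log2 values per probe set, made with GCRMA per the submitters' processing notes. The GCRMA version, the chip definition and whether the arrays were processed jointly: not given in the sources used here. That the scale is log2 follows from the values, which ran from 0.612 to 16.3. Nothing was renormalized, and the number of arrays limits the precision.

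Gene names came from the platform annotation, updated through gene identifiers in a RefSeq table of GRCh38.p14; of 54675 probe sets 41097 had 1 gene, 1801 several and 11777 none. Changes were tested with limma 3.58.1 (R 4.3.3; lmFit, eBayes; siGNE minus control), with Benjamini-Hochberg adjustment over the 22085 probe sets whose mean exceeded 4, leaving out 62 control probe sets. The script was tested on simulated data. The fit without a replicate term had 4 residual degrees of freedom and the fit with the title number as a block had 2. Deviations from group means correlated at 0.576 to 0.833 between arrays of one number and at -0.639 to 0.17 between others, so the numbers were taken as pairs, from the titles and this check. A gene stands for its tested probe set with the highest mean, without _x_at probe sets where it has another.

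All members were named, with GNE, 3 genes per list (smallest unadjusted p), every tested other chemokine and receptor, and the 3 genes nearest to each of the members with the largest rise and fall. Members and lists were chosen with earlier results of these data known. Promoter motifs were searched on both strands, identities come from global alignments (Biopython 1.88), and exact permutation tests used SciPy 1.17.1.

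Alternatives changed the filter (none, or 6), the floor, the normalization, the variance model, the array weights, the threshold, the probe set per gene and the block, or left out arrays or pairs.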

Additional observations from a re-analysis of the deposited data

How the results depend on the processing

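The number of chemokine genes that passed was 0 of 8 in limma without the replicate block, with 4 at an unadjusted p under 0.05, and it stayed 0 with no filter (10 tested), a mean above 6 (7 tested), a floor at 4, median centring, quantile normalization, robust or trended variances, array weights, an adjusted p under 0.1 and other probe set rules. It was also 0 with each array left out in turn. With the replicate block it was 4 (CXCL1, CXCL6, CXCL8 and CXCL16), and the same 4 genes passed with the block together with a floor at 4, median centring, quantile normalization, an adjusted p under 0.1, the mean of all tested probe sets or the highest mean with _x_at included, the last chosen after seeing the data. With the block it was 0 with no filter, and 0 without replicate 1, 2 or 3, fits with 1 residual degree of freedom. The fit with no filter adjusted over more probe sets, and its SE changed as well. With the block, removing the filter took the SE from 0.27 to 0.35 for CXCL1, 0.20 to 0.25 for CXCL6 and 0.17 to 0.20 for CXCL8 (211506_s_at). For CXCL16 it went from 0.086 to 0.037. Which of these changes removed the calls was not tested.

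Of 263 recomputed differences of the 12 tested probe sets, 231 kept their sign and side of the threshold, 20 newly passed, each with the replicate block, and 12 changed sign, none of them in CXCL1, CXCL6, CXCL8, CXCL16 or CXCL3. The CXCL1, CXCL6 and CXCL16 differences ran from -1.75 to -1.07, -2.06 to -1.28 and 0.42 to 0.52, and those of the CXCL8 probe sets from -1.86 to -1.28 (202859_x_at) and -1.53 to -1.04 (211506_s_at). CCL28 224027_at turned to 0.074 and 0.098 without control array 2 or 3 (lowest with 1 array left out -0.60), and to 0.095 and 0.058 with the block without number 2 or 3. CCL28 238750_at turned to 0.0092 with the block without number 3. CXCL2 209774_x_at turned to 0.011 without siGNE array 1 (lowest -0.23), and CXCL5 214974_x_at to 0.12 without control array 3 (lowest -0.28). CXCL5 215101_s_at turned to 0.017 with array weights, 0.49 without control array 3, 0.021 and 0.025 without siGNE array 1 or 2 (lowest -0.61), and 0.073 with the block without number 3. These were differences that did not pass, and the cause was not tested. Values near background limit what can be said of CCL20 and CX3CL1, and low values limit it for the siGNE arrays of CXCL6.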
